A study of Mus musculus with 2 samples.

Results

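The miR-130/301 family is a group of miRs whose 3p arms share a seed, and its reads in mouse sperm are described here. The members are miR-130a, miR-130b, miR-301a and miR-301b, found by name in the deposited count tables, with both arms of each hairpin. This gave 8 of the 1886 mature miR entries, 4 for 3p arms and 4 for 5p arms, and none of the 12 entries that join several names was among them. The samples were 2 small RNA libraries of sperm from wild-type C57BL/6J mice, 3 months old and labelled naive, and the paper calls them independent biological replicates. Sperm was let out of the dissected epididymis and treated with a detergent buffer to break other cells, and the number of mice behind each library is not given in the sources used here. The names of the deposited tables carry the word POSTTREAT, which the labels do not explain. With 1 condition there is no contrast to test, so all comparisons are between members, between arms or between the 2 libraries, and none carries a p-value. The family was chosen for description with its counts already known.

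A miR is cut from the stem of an RNA hairpin as a duplex of a 5p and a 3p arm. Usually one arm is kept by an Argonaute protein and guides it to mRNAs, and the other is degraded. Bases 2 to 8 of the loaded arm, the seed, decide most of the pairing, so miRs with the same seed can repress overlapping sets of mRNAs. The miR-130/301 family is known from blood vessels, where miR-130a acts in endothelial cells and the family has been linked to the remodelling of lung vessels, and from fat cells, where miR-130 represses the adipogenic factor Pparg.

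Mature sequences from RefSeq (GRCm38.p6) were found for 7 of the 8 entries, the exception being miR-301b-3p. They are shown 5′ to 3′ with the seed in capitals, 3p arms first, because the family is defined by the seed of these arms and the 5p arms do not have it.
miR-130a-3p: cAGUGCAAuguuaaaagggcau
miR-130b-3p: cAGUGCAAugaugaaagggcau
miR-301a-3p: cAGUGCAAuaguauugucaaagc
miR-130a-5p: gCUCUUUUcacauugugcuacu
miR-130b-5p: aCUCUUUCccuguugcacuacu
miR-301a-5p: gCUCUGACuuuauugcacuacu
miR-301b-5p: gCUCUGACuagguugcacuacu

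All 3 of the 3p arms shown carry the seed AGUGCAA. miR-130a-3p and miR-130b-3p are identical at 20 of 22 bases and differ by U11A and A13G, counted from 1 at the 5′ end with the base of miR-130a-3p first. miR-301a-3p shares its first 9 bases with both and then departs from them. Among the 5p arms, miR-301a-5p and miR-301b-5p share the seed CUCUGAC, while miR-130a-5p and miR-130b-5p have seeds that differ from it and, by U8C, from each other. miR-130b-5p starts with A and the other 5p arms start with G. The authors kept reads of at least 15 nucleotides and mapped them to miRs without mismatches. No pair of the 7 sequences shares a run of more than 11 bases, so a read that matched one of them in full could not match another. miR-301b-3p was not in this comparison. In the hairpin of Mir301b, the stretch that holds AGUGCAA differs from miR-301a-3p only by a G in place of an A after the seed. Whether edited or misread reads of miR-301a-3p were counted as miR-301b-3p was not tested. Sequences were found for 1608 of the 1886 entries, and the rest could not be compared. Among those with a sequence, the longest run shared with an entry outside the family was 15 bases. It was between miR-130a-3p and miR-6389, which had 0 reads in both libraries.

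The hairpins lie at 3 places in the mouse genome (GRCm38, GENCODE annotation). Mir130a (ENSMUSG00000065484.1) is at chr2:84741115-84741178 on the minus strand, within no other annotated gene, and 990 bases separate it from the nearest protein-coding gene, Gm19426. Mir301 (ENSMUSG00000065589.1), the gene of miR-301a, is at chr11:87113004-87113089 on the plus strand, in intron 1 of Ska2, a gene of the spindle and kinetochore complex. Mir130b (ENSMUSG00000065572.1, chr16:17124061-17124142) and Mir301b (ENSMUSG00000076288.1, chr16:17124400-17124496) are neighbours on the minus strand. They lie 257 bases apart, both in intron 1 of the protein-coding gene 2610318N02Rik. The hairpins of miR-130a and miR-130b are given with their arms in capitals. The first is an example of a member with reads on the 3p arm alone. The second is the member with reads on both arms in each library.
Mir130a: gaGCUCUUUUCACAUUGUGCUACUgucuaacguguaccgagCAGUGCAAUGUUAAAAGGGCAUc
Mir130b: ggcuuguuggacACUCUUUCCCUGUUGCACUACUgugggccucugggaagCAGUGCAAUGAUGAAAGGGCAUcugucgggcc

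Replicate 1 held 4049599 miR reads and replicate 2 held 5648067. Levels are given as CPM, the reads of a miR per 1000000 miR reads of its library, and Wilson 95% intervals and the limit of 3 reads (0.741 and 0.531 CPM) cover counting error only. The mature miRs compared have nearly equal lengths, so CPM were not corrected for length. Of 5 marker lists, that of germ cells (5 of 7 members matched an entry, 4 with a read in each library, miR-741-3p at 0 reads) summed to 3452 CPM in replicate 1 and 1499 CPM in replicate 2, and that of epithelium (5 of 5) to 10607 and 8525 CPM. Smooth muscle and stroma (4 of 4) summed to 41166 and 62339 CPM, blood cells (5 of 5) to 172 and 263 CPM, and endothelium to 80.3 and 82.5 CPM, all on miR-126a-3p, since miR-126a-5p was at 0. Each of these lists rested mainly on a few miRs, and the tables hold no other tissue to set them against.

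The family was present in both libraries as a small share of the miR reads, with most of its reads on miR-130a-3p and miR-301a-3p. All 8 entries together held 818 reads in replicate 1 and 959 in replicate 2. Their summed level was 202 CPM (interval 189 to 216) in the first library and 169.8 CPM (159 to 181) in the other, which averages to 186 ± 22.8 CPM (SD, n = 2). This was 0.0202% and 0.0170% of the miR reads. Of the 8 entries, 5 had at least 1 read in each library, where 20% of all entries did. The same 5 had at least 10 reads in each library, against 12.9% of all entries. They were the 4 3p arms and miR-130b-5p. miR-130a-5p and miR-301b-5p had 0 reads in both libraries, and miR-301a-5p was seen in replicate 1 only.

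miR-130a-3p, the arm known from endothelial cells, was the most abundant member. It had 467 reads in replicate 1 and 602 in replicate 2, which corresponds to 115 CPM (interval 105 to 126) in the first library, 107 CPM (98.4 to 115) in the other and 111 ± 6.18 CPM (SD, n = 2) on average. The libraries lay within each other's counting intervals, and the entry ranked 74th by mean CPM among the 378 entries with a read in each library. miR-301a-3p followed with 180 and 285 reads. Its level was 44.4 CPM (38.4 to 51.4) in replicate 1, 50.5 CPM (44.9 to 56.7) in replicate 2 and 47.5 ± 4.25 CPM (SD, n = 2) on average, at rank 105. With miR reads as the denominator, its counting intervals overlapped between the libraries.

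miR-130b came next, and its level differed most between the libraries. miR-130b-3p went from 93 reads in replicate 1 to 32 in replicate 2. Its level was 23.0 CPM (18.7 to 28.1) in the first library, 5.67 CPM (4.01 to 8.0) in the other and 14.3 ± 12.2 CPM (SD, n = 2) on average, at rank 146. For miR-130b-5p, 62 reads (15.3 CPM, 11.9 to 19.6) stood against 25 (4.43 CPM, 3.00 to 6.53), with 9.87 ± 7.70 CPM (SD, n = 2) on average, at rank 169. Both arms were lower in replicate 2, with intervals that did not overlap between the libraries.

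miR-301b-3p was the least abundant 3p arm. Its 11 reads in replicate 1 amounted to 2.72 CPM (1.52 to 4.86) and its 15 reads in replicate 2 to 2.66 CPM (1.61 to 4.38). The average of 2.69 ± 0.0428 CPM (SD, n = 2) placed it at rank 251. The 5 reads of miR-301a-5p in replicate 1 amounted to 1.23 CPM (0.527 to 2.89), and replicate 2 had none. In the order of the means, miR-130a-3p was 2.34-fold above miR-301a-3p, and this one 3.31-fold above miR-130b-3p, with the values of the 2 libraries apart in both cases. miR-130b-3p and miR-130b-5p overlapped. miR-130b-5p lay above miR-301b-3p in each library, by 5.64-fold in replicate 1 and by 1.67-fold in replicate 2, where the counting intervals overlapped.

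**Figure D1:**
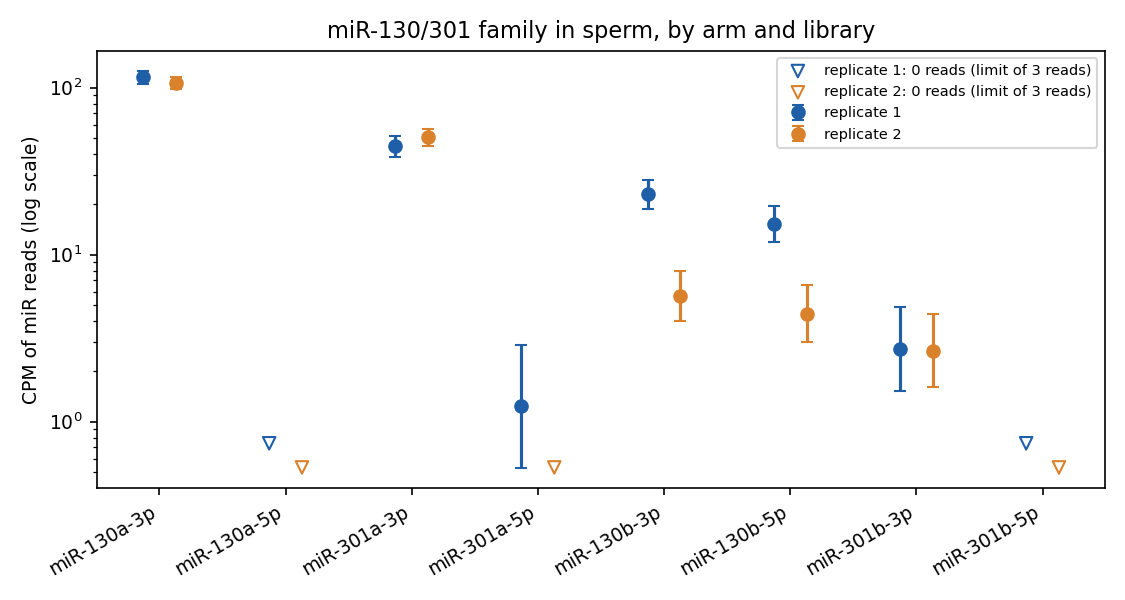
CPM of the miR reads (log axis) for the 8 entries of the family, with blue points for replicate 1 and orange points for replicate 2, Wilson 95% intervals as bars, and open triangles at the limit of 3 reads where an entry had 0 reads. miR-130a-3p lay at 115 and 107 CPM in the 2 libraries, while both arms of miR-130b lay lower in replicate 2 than in replicate 1.

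**Figure D2:**
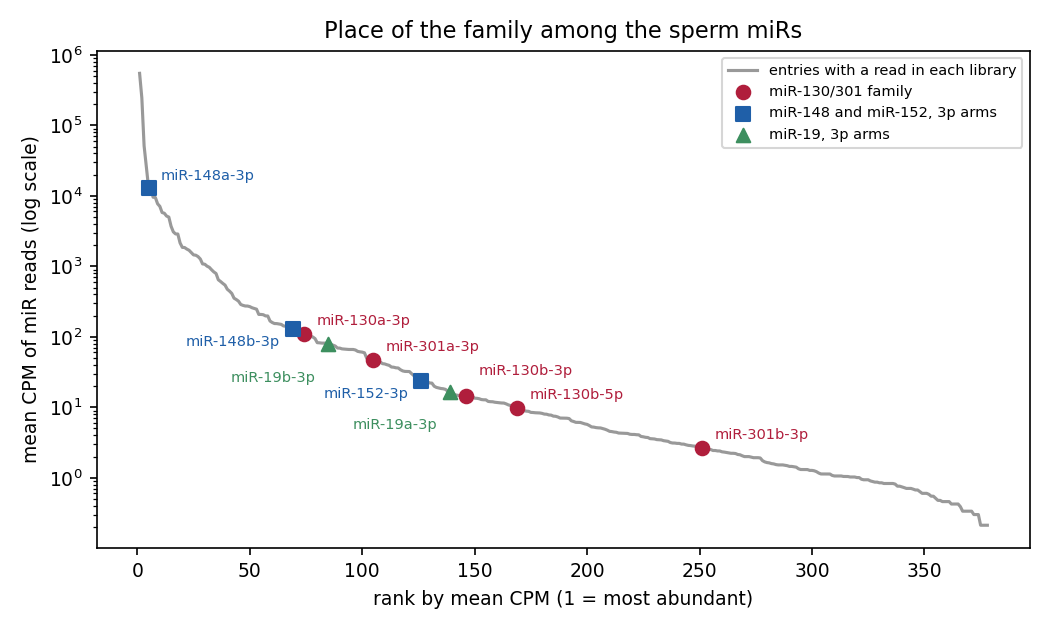
Mean CPM (log axis) against rank for the 378 entries with a read in each library (grey line), with the family in red, the 3p arms of miR-148/152 in blue and those of miR-19 in green. The 5 members shown ran from rank 74 for miR-130a-3p to rank 251 for miR-301b-3p.

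The 3p arm held nearly all reads of 3 hairpins, and miR-130b was divided between both arms. For miR-130a, all 467 and 602 reads were on the 3p arm, at least 156-fold and 201-fold above the limit of 3 reads for the 5p arm, which allows the 5p arm a share of up to 0.642% and 0.498%. For miR-301a the 3p arm held 180 of 185 reads in replicate 1, a share of 97.3% (interval 93.8% to 98.8%), while replicate 2 had all 285 reads there (98.7% to 100%). For miR-301b all 11 and 15 reads were on the 3p arm, a depth that still allows a 5p share of up to 27.3% and 20%.

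For miR-130b, the 3p arm held 93 of 155 reads in replicate 1, a share of 60.0% (52.1% to 67.4%). In replicate 2 it held 32 of 57 reads, a share of 56.1% (43.3% to 68.2%). The average was 58.1% ± 2.73 (SD, n = 2). The 5p arm thus took 40.0% and 43.9%. The share of the arms was the same within counting error in both libraries, although the level of the hairpin was not. miR-130b-5p made up 62 of the 67 reads on 5p arms of the family in replicate 1 and all 25 in replicate 2.

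All 4 member hairpins had over 50% of their reads on the 3p arm in each library, as did 43.9% of the 157 hairpins with at least 10 reads per library and an entry for each arm. A 3p share between 25% and 75% in each library was found for 5.10% of these hairpins, that is for miR-130b and 7 others, miR-144, miR-145a, miR-151, miR-152, miR-423, miR-574 and miR-743a. This window was set after the shares had been seen. With a window of 10% to 90% it was 15.9%, or 25 hairpins, and with 33% to 67% it was 4.46%, or 7 hairpins, and in both cases miR-130b was the only member among them.

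**Figure D3:**
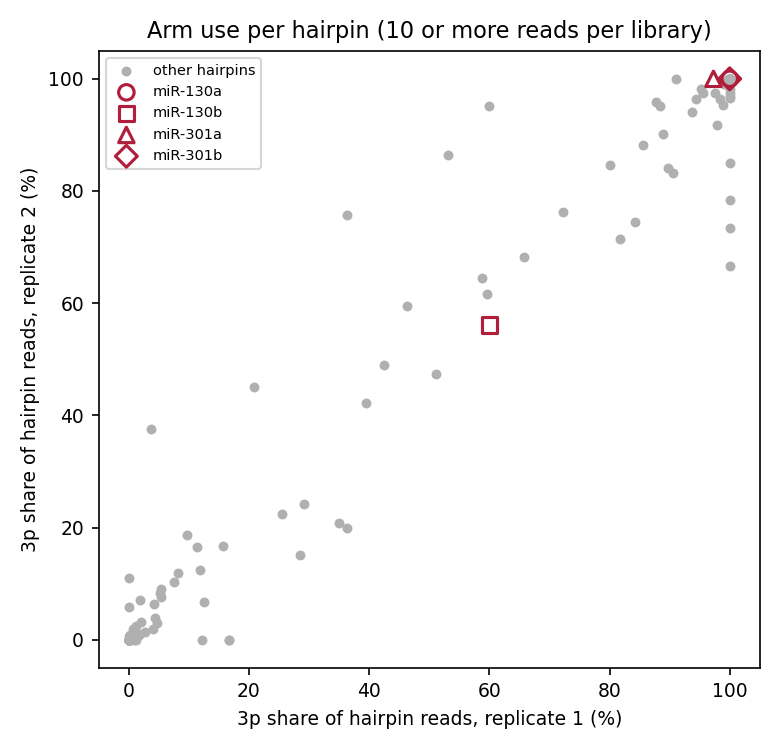
Share of the reads of a hairpin on its 3p arm (%) in replicate 1 (horizontal) and replicate 2 (vertical) for the 157 hairpins with at least 10 reads in each library, with the 4 members as red open symbols and the others in grey. miR-130b lay at 60.0% and 56.1%, while miR-130a and miR-301b lay on the same point at 100% in both libraries and miR-301a close to it.

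Reads with the seed AGUGCAA were thus shared among few entries. Of the reads on the 4 3p arms, miR-130a-3p took 62.2% (interval 58.7% to 65.6%) in the first library, with 64.5% (61.3% to 67.5%) in the other. The share of miR-301a-3p was 24.0% (21.1% to 27.1%) against 30.5% (27.6% to 33.5%), and that of miR-130b-3p was 12.4% (10.2% to 14.9%) against 3.43% (2.44% to 4.80%). The remaining 1.46% and 1.61% were on miR-301b-3p. Because the shares have a fixed total, a smaller share of miR-130b-3p in replicate 2 goes with larger shares of the other members. The rise was largest for miR-301a-3p, whose CPM intervals overlapped between the libraries.

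**Figure D4:**
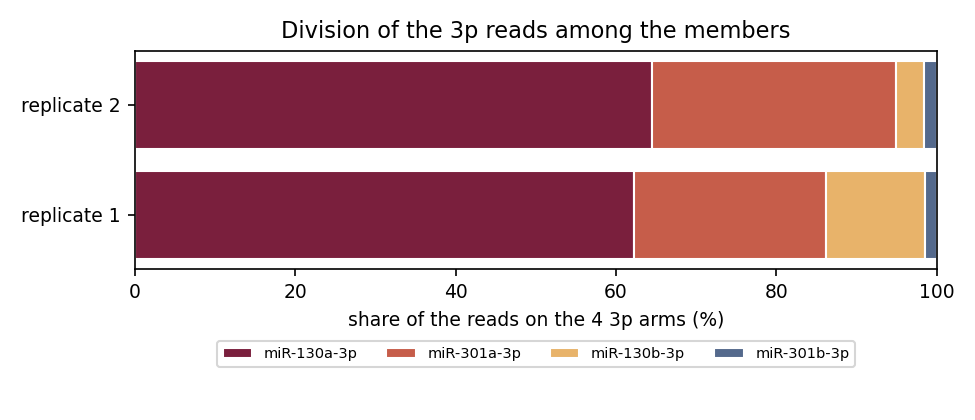
Division of the reads on the 4 3p arms of the family (%, horizontal) in replicate 1 and replicate 2, with 1 coloured segment per member. miR-130a-3p held 62.2% and 64.5%, and the segment of miR-130b-3p was 12.4% in replicate 1 and 3.43% in replicate 2.

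The sequence table holds 4 further mature miRs with the same seed, miR-130c, miR-6341, miR-6389 and miR-721, and all had 0 reads in both libraries. The seeds of the miR-148/152 and miR-19 families overlap that of the miR-130/301 family by a shift of 1 base, in opposite directions. One member of each is shown with its seed in capitals, beside miR-6389, which has the same seed as the family.
miR-148a-3p: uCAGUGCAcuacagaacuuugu
miR-19b-3p: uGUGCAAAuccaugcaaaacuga
miR-6389: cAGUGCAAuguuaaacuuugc

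miR-148a-3p, which is known to repress the DNA methyltransferase Dnmt1, stood far above the miR-130/301 family, with 62781 and 59104 reads, or 15503 and 10464 CPM. miR-148b-3p was above all members in replicate 1 (173 CPM) and below miR-130a-3p in replicate 2 (85.3 CPM). miR-152-3p, with 22.7 and 24.4 CPM, lay between miR-130a-3p and miR-301b-3p in each library. The arms of the miR-17-92 cluster and its relatives, miR-19b-3p with 88.9 and 68.2 CPM and miR-19a-3p with 22.5 and 11.0 CPM, lay in the same range. The 5 entries outside the family nearest in level to miR-130a-3p, by the distance in log2(CPM + 1) over the 2 libraries, were miR-27a-3p (distance 0.19, 102 and 101 CPM), miR-148a-5p, miR-195a-5p, miR-142a-5p and miR-6240 (distance 0.35). With 2 libraries of 1 condition this is a likeness of level only.

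Ratios between the libraries were compared for the members with a read in each, which leaves out miR-301a-5p. Relative to the miR reads, the libraries differed beyond counting error in both arms of miR-130b and in no other of these members. For miR-301a-3p and miR-130a-3p this depended on the scaling. miR-130b-3p was 4.05-fold lower in replicate 2 than in replicate 1 (exact 95% interval for counting error 2.69 to 6.26) and miR-130b-5p was 3.46-fold lower (2.14 to 5.74). The other ratios of replicate 1 to replicate 2 were 1.08 for miR-130a-3p (0.957 to 1.22), 0.881 for miR-301a-3p (0.727 to 1.07) and 1.02 for miR-301b-3p (0.425 to 2.38). miR-301a-3p was higher in replicate 2 beyond counting error under all 4 other scalings and denominators, by 1.27-fold without miR-10a-5p and miR-10b-5p in the denominator (1.05 to 1.54) to 1.45-fold with TMM (1.20 to 1.75). miR-130a-3p was so with TMM, by 1.18-fold (1.04 to 1.33), and with DESeq2 size factors, by 1.17-fold (1.04 to 1.33), but not with the other denominators. Both arms of miR-130b were lower in replicate 2 beyond counting error under all of them, by at least 3.18-fold for miR-130b-3p (2.11 to 4.91) and 2.71-fold for miR-130b-5p (1.68 to 4.51). These scaled intervals were computed after the ratios had been seen. Without miR-130b the family stood at 164 and 159.7 CPM.

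Mir130b and Mir301b share an intron, yet their 3p arms stood in different proportions in the 2 libraries. In replicate 1, 93 of the 104 reads on both 3p arms were of miR-130b-3p, or 89.4% (interval 82.0% to 94.0%). In replicate 2 it was 32 of 47 reads, or 68.1% (53.8% to 79.6%). The intervals did not overlap, but they rest on 11 and 15 reads of miR-301b-3p and cover counting error only. Of the reads on the 3p arms of miR-301a and miR-301b, miR-301b-3p held 5.76% in replicate 1 and 5% in replicate 2. Whether some of its reads were edited or misread copies of miR-301a-3p was not tested.

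The ratios of both arms of miR-130b were in the lower tail of all entries, between 2 libraries of the same condition. On the scale of log2(CPM + 1), the ratio of replicate 2 to replicate 1 was -1.85 for miR-130b-3p and -1.59 for miR-130b-5p. Of the 323 entries whose reads in both libraries came to at least 10, 16.7% had a ratio below -1, and 10 entries lay below miR-130b-3p and 21 below miR-130b-5p. The ratios of miR-130a-3p (-0.11), miR-301a-3p (0.18) and miR-301b-3p (-0.02) lay between -0.5 and 0.5, as did 50.8% of the entries. These bounds were set after the ratios had been seen.

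The median ratio of the 323 entries was -0.25 and moved by 0.30 with TMM scaling, which turned the sign of miR-130a-3p (0.23) and miR-301b-3p (0.23). miR-301a-3p was positive under the scalings, denominators and pseudocounts tried, from 0.18 to 0.52. With TMM (0.52) and with DESeq2 size factors (0.51) it lay outside the bounds of -0.5 and 0.5. Relative to that median, miR-130a-3p was at 0.13, miR-301a-3p at 0.42 and miR-301b-3p at 0.22, while miR-130b-3p was at -1.60 and miR-130b-5p at -1.34. With TMM scaling miR-130b-3p was at -1.53 and miR-130b-5p at -1.28. Relative to the miR reads, the germ-cell list was 2.30-fold lower in replicate 2 as well, and that of epithelium 1.24-fold lower. The lists of smooth muscle and stroma, of blood cells and of endothelium were 1.51-fold, 1.53-fold and 1.03-fold higher. Other scalings were not applied to these lists. The share of reads assigned to no miR was 38.1% in replicate 1 and 26.3% in replicate 2. The part of these differences in the level of miR-130b was not tested.

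**Figure D5:**
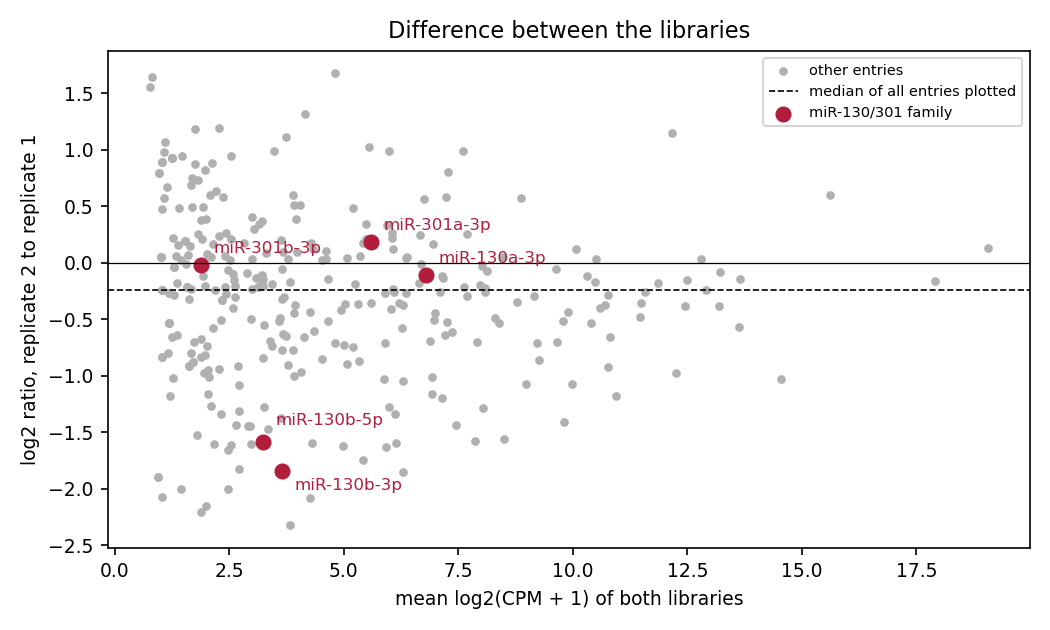
Log2 ratio of replicate 2 to replicate 1 against the mean log2(CPM + 1) for the 323 entries whose reads in both libraries came to at least 10, in grey, with the 5 detected members in red, a solid line at 0 and a dashed line at the median of -0.25. miR-130b-3p and miR-130b-5p lay at -1.85 and -1.59, and the other members lay near 0.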

How the data were processed

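Small RNA of sperm was sequenced in 2 libraries of 1 group, prepared with an Illumina TruSeq kit. The labels and the paper do not name this kit alike, and which was used is not settled here. The authors cut low-quality ends off the reads, removed adapters and reads under 15 nucleotides with cutadapt 1.8.1, and mapped with bowtie 1.1.2, first to miR and piRNA sequences without mismatches. HTSeq and the builds mm10 and GRCm38 are listed in the submitters' processing notes, and the miR annotation release is not given in the sources used here. The deposited values are raw read counts per mature miR and library, not pooled. Mapping without mismatches leaves out reads with edited or extended ends at that step, which can lower the counts of an arm. The later mapping, to other small RNAs and to the genome, allowed 1 mismatch. Whether reads from it entered the counts is not given in the sources used here. The summary entry for reads assigned to no miR (38.1% and 26.3% of the reads listed) was left out of library sizes.

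CPM, SD over the 2 libraries, Wilson intervals, exact intervals of ratios and log2 ratios with a pseudocount of 1 CPM were computed in Python 3.11.15 (scipy 1.17.1), with matplotlib 3.10.9 for the plots. Scaling by TMM (edgeR 4.0.16) and by the size factors of DESeq2 1.42.0 were alternatives, next to other denominators, minimums, pseudocounts and a thinning of the libraries. The intervals of ratios under other scalings were added after seeing the data. The log2 ratios and Wilson intervals were tested on simulated counts with counting error only, for entries with more reads than either arm of miR-130b. The exact intervals of ratios were not tested in this way. Sequences came from RefSeq (GRCm38.p6) and gene models from GENCODE.

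The members, marker lists and entries compared were chosen with earlier results of these data known. The entries named were all 8 of the family, all others with its seed, the 3p arms of the miR-148/152 and miR-19 families, and the 5 entries nearest in level to the most abundant member. The hairpins with a balanced use of arms were named after their values were seen.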

Additional observations from a re-analysis of the deposited data

How the results depend on the processing

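No paired analysis was possible because both libraries belong to 1 group. The family sum of 186 CPM became 891 CPM without miR-10a-5p and miR-10b-5p in the denominator and 125 CPM relative to all reads listed, which only changes the denominator. TMM, DESeq2 size factors, thinning, the 3p arms alone, the seed-matched entries alone and each library alone moved it by no more than the SD between the libraries. A library alone always lies within that SD, and the scalings shift the libraries in opposite directions, so nothing is read from this. The number of members detected, 5, was 2 with a minimum of 10 CPM in each library and between 4 and 6 with minimums of 3 to 20 reads or 1 CPM, the thinning and each library alone. Minimums of 50 and of 100 reads in each library left 2 members, and 100 CPM in each library left 1, miR-130a-3p. At 20 reads in each library miR-301b-3p was the member lost. Over the 5 members the median of the log2 ratios between the libraries, -0.11, became 0.23 with TMM and 0.23 with DESeq2 size factors, and 0.05 without miR-10a-5p and miR-10b-5p in the denominator. Both arms of miR-130b stayed below -1 under the scalings, denominators and pseudocounts tried, with miR-130b-3p from -2.0 to -1.53 and miR-130b-5p from -1.77 to -1.28. The mean of miR-130b-3p, 14.3 CPM, was 5.67 CPM without replicate 1 and 23.0 CPM without replicate 2, and that of miR-130b-5p, 9.87 CPM, was 4.43 and 15.3 CPM. The 3p share of the family was between 91.8% and 97.4% and the share of miR-130a-3p in the 3p reads between 62.2% and 64.5% in each library alone. Depth limits miR-301b and miR-301a-5p most, since their intervals are as wide as their values or wider.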
